A study of Mus musculus with 7 samples.

Results

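The MHC class I genes and the machinery that loads them with peptide were followed as 33 genes, chosen by gene name among the non-control probes of the array. They comprised 16 heavy chain genes, the light chain B2m, 7 genes of peptide transport and loading, 5 genes of the immunoproteasome and its PA28 activator, the trimming enzyme Erap1, the transactivator Nlrc5 and the class I-like genes Cd1d1 and Mr1. Of the 33, 30 were measured among 18231 genes tested over the whole array. Each of the 30 was well above background on all 7 arrays. H2-Q1 and H2-T3 had no array on which they were well above background, so no fold is given for them, and no probe carried the name H2-T22.

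The Lck-off group was 4 samples of naive CD8 T cells from OT-1het, Rag-/-, Lck-/- mice whose knocked-in, doxycycline-dependent Lck had been off for 7 days after the drug was taken out of the diet. The WT group was 3 samples of the same cells from OT-1het, Rag-/- mice. OT-1 names a transgenic receptor specific for an ovalbumin peptide on the class I molecule H2-Kb, and without Rag the mice make no other T or B cell receptors, so both groups carried the same receptor. Cells came unstimulated from lymph node and were sorted as CD8b+ and CD44low. The sources used here do not give strain, age, H2 haplotype, the promoter that drives Lck, whether a sample pooled animals, or whether WT mice had been fed doxycycline. The samples are described as biological replicates.

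Class I molecules are made of a heavy chain, beta-2 microglobulin and a short peptide. The proteasome cuts proteins into peptides, the TAP transporter carries them into the endoplasmic reticulum, and tapasin and the chaperones calreticulin, calnexin and ERp57 help to load them. Nearly all nucleated cells, T cells among them, display class I, and the genes are induced by interferons and by the transactivator NLRC5. In the mouse most heavy chain genes, the TAP genes, tapasin and the immunoproteasome subunits Psmb8 and Psmb9 lie together on chromosome 17, while B2m and other parts of the machinery lie elsewhere.

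Levels below are in log2 intensity above or below the 75th percentile of the same array, and a difference is Lck-off minus WT on that scale. Genes were called at a Benjamini-Hochberg adjusted p under 0.05 from a limma fit to all 18231 genes. Lck itself read 8.52, 8.83, 8.60 and 8.55 in Lck-off samples and 8.99, 9.02 and 8.98 in WT samples. All Lck-off arrays lay below all WT arrays, with a difference of -0.37 (SE 0.09, adjusted p = 0.0493; exact two-sided permutation p = 0.0571, 2 of 35 splits). That call ended when any 1 array except Lck-off replicate 2 was left out (adjusted p 0.0982 to 0.154). Its 1 probe may lie outside the altered part of the gene, which the labels leave unnamed. All 10 defining CD8 T cell markers were above background, with summed levels of 2144 to 2286 in Lck-off samples and 2088 to 2216 in WT samples. Of 17 macrophage, monocyte and neutrophil markers on the array, only Fcgr3 was never above background, and their summed level was 109 to 124 in Lck-off samples and 81.9 to 99.8 in WT samples. Ctss (0.69, adjusted p = 0.0105) and C1qb (0.59, adjusted p = 0.0469) were the 2 called higher of 9 tested. At an unadjusted p under 0.05, 6 of the 9 were higher and none lower, and all 9 differences were positive (0.14 to 1.75), though C1qa, C1qc and Mpeg1 were well above background on only 1 of 3 WT arrays. Dendritic cell markers, with Clec9a and Cd209a never above background, summed to 254 to 316 in Lck-off samples and 245 to 266 in WT samples. None of 7 tested was called by limma, but their median difference was 1.07 (range -0.69 to 1.40). Of these 7, 2 were higher and none lower at an unadjusted p under 0.05, and neither the deposited table nor the trended, robust fit called any. NK cell markers summed to 15.6 to 19.6 in Lck-off samples and 13.7 to 15.1 in WT samples. None of 3 tested was called, with a median difference of 0.54 (range 0.20 to 0.66). B cell markers, 6 of 10 of them never above background, summed to 12.5 to 15.3 in Lck-off samples and 12.8 to 14.8 in WT samples. None of 4 tested was called, with a median difference of -0.05. The part of these cells in the class I results was not tested, and in bulk RNA a change in the number of cells of a type and in RNA per cell cannot be told apart.

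Of the 30 measured members, 19 rose in Lck-off cells, 1 fell and 10 were not called. Over all genes 3.8% were called higher and 4.57% lower. The median member difference was 0.44, against -0.01 over all genes. In 24 members every Lck-off array lay above every WT array and in 1 every Lck-off array lay below, patterns found in 9.8% and 12% of all genes. All 13 measured heavy chains were among the 19, with a median difference of 0.55. None of the 3 general chaperones of the endoplasmic reticulum was called higher (median -0.01), and the immunoproteasome and PA28 genes lay between, with a median of 0.30. The array-by-array plot shows these roles.

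**Figure D1:**
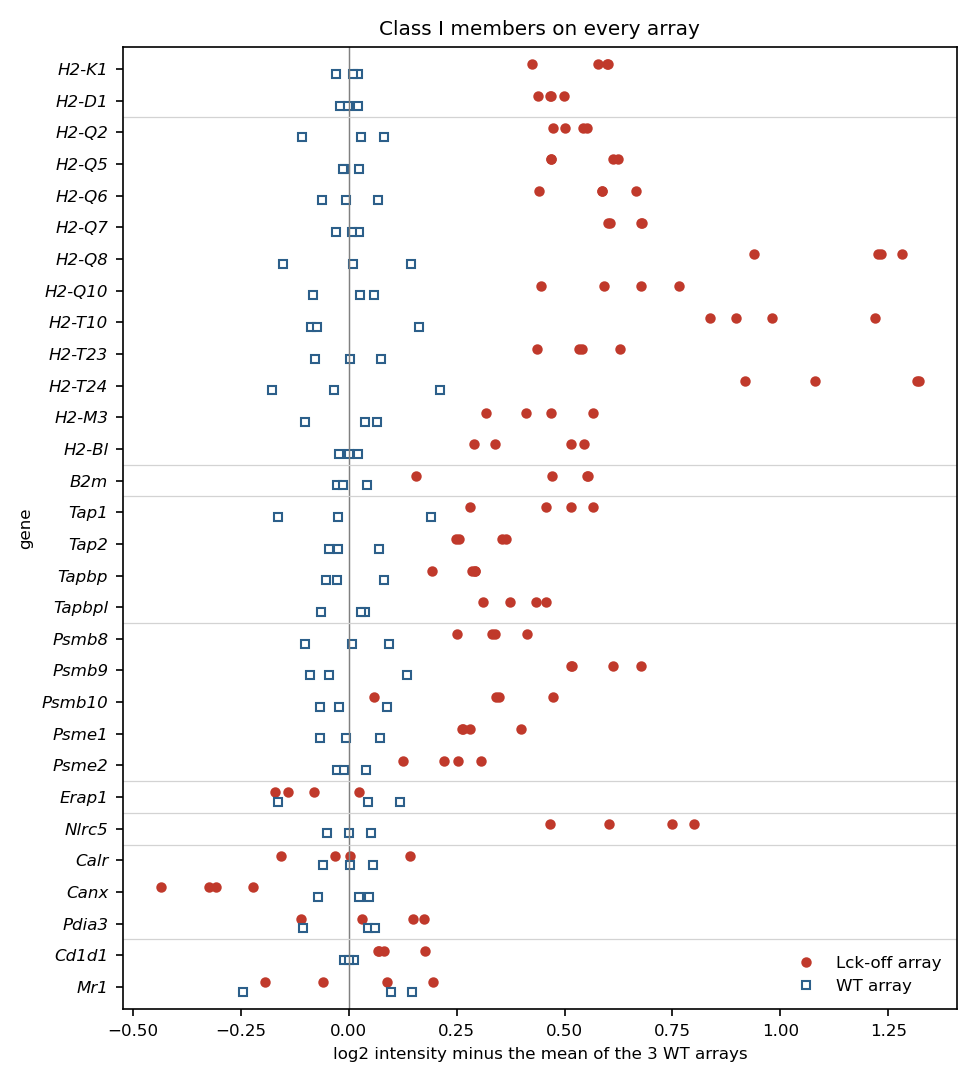
Each of the 30 measured members on every array, as log2 intensity minus that gene's mean over the 3 WT arrays; filled circles are the 4 Lck-off arrays, open squares the 3 WT arrays, and grey lines part the roles. The 13 heavy chain rows at the top have no overlap between Lck-off and WT arrays, whereas Psmb10, Erap1, Calr, Pdia3 and Mr1 have circles among the squares.

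The heavy chains form a family of close copies, and how well a probe tells them apart bears on every value below. The array held 20 probes of the member heavy chains, and 9 of them shared a run of at least 12 bases with a probe of another heavy chain gene, in 8 probe pairs counting the probe named H2-T9. Probes under 5 gene names are printed to show how near the copies are, with the shared runs in capitals.
H2-K1, base 1021 of its transcript: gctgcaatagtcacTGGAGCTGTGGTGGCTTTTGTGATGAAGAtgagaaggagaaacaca
H2-T23, base 980: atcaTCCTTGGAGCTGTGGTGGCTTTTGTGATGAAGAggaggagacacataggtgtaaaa
H2-Q6, base 921: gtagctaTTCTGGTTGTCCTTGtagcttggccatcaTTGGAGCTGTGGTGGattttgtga
H2-Q2, base 896: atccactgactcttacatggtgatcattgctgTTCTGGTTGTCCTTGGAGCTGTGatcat
H2-Q2, base 608: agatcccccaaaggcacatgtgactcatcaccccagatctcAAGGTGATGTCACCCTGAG
H2-Q10, base 645: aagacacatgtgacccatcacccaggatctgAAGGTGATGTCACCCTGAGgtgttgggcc
The run shared by H2-K1 and H2-T23 was 29 bases long. The H2-Q10 probe and the probe named H2-Q2 at base 608 were identical at 45 of 50 overlapping bases. By its mm9 position that probe named H2-Q2 lies near the probe of H2-Q1. The probe of H2-Q7 lists transcripts of both H2-Q7 and H2-Q9. Probes were compared only with each other and not with transcripts, so a probe without a shared run may still match RNA of another heavy chain. A reading for one of these genes may therefore hold RNA of another. With the haplotype not given, a difference in sequence between the groups and a difference in RNA level cannot be told apart.

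Both classical heavy chains, which present peptides to CD8 T cells, rose. H2-K1 (mm9 chr17:34133055-34133114) read 9.58, 9.75, 9.73 and 9.75 in Lck-off samples and 9.18, 9.16 and 9.12 in WT samples. H2-D1 (chr17:35403886-35403945) read 8.75, 8.81, 8.78 and 8.77 in Lck-off samples and 8.29, 8.33 and 8.31 in WT samples. The lowest Lck-off array was above the highest WT array by 0.40 for H2-K1 and 0.42 for H2-D1. H2-K1 was 1.46-fold higher (95% confidence interval 1.30 to 1.65, adjusted p = 0.00432) and H2-D1 1.38-fold higher (1.25 to 1.53, adjusted p = 0.00394). The second H2-K1 probe, the one whose sequence is printed above, gave a difference of 0.62 (SE 0.08) beside 0.55 (SE 0.07) for the brightest probe, which shares no such run.

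All 6 measured members of the Q region, non-classical heavy chains of limited polymorphism, rose, with a median difference of 0.59. H2-Q8 (mm9 chr17:35532392-35532451) had the largest difference of any member at its brightest probe, with levels of 5.02, 5.30, 5.31 and 5.36 in Lck-off samples and 4.22, 4.09 and 3.93 in WT samples. Its level was 2.25-fold higher (95% confidence interval 1.87 to 2.71, adjusted p = 0.00142), and even the lowest Lck-off sample, replicate 1, lay 0.80 above the highest WT sample. H2-Q7, whose product Qa-2 is a surface antigen of T cells, read 8.88, 8.95, 8.88 and 8.95 in Lck-off samples and 8.25, 8.30 and 8.28 in WT samples, a difference of 0.64 (SE 0.06, adjusted p = 0.00146). The replicates of each group differed by less than 0.1 on that scale, so the gap between groups was several times the spread within them. H2-Q2, H2-Q5 and H2-Q6 rose by 0.52, 0.54 and 0.57 (adjusted p 0.00464 to 0.00558). H2-Q5 has no mapped position on the array, and in RefSeq its nearest H2 neighbours are H2-Q4 and H2-Q6.

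H2-Q10, which encodes a secreted class I molecule made chiefly in liver, gave different sizes at its 2 probes. The brighter probe, the one printed above beside its near-copy named H2-Q2, rose by 0.62 (SE 0.10). The other probe read -0.02, 1.01, 0.73 and 0.81 in Lck-off samples and -1.66, -2.11 and -1.52 in WT samples. At that probe the difference was 2.40 (SE 0.26, adjusted p = 0.00253 over all kept probes, of which 3.46% were called higher). Both probes had every Lck-off array above every WT array, and the fainter one shares a run of 22 bases with a probe of H2-T3, which was itself not well above background.

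The 5 measured heavy chains of the T, M and Bl loci also rose, with a median difference of 0.54. H2-T23, which encodes Qa-1, the ligand of the inhibitory receptor NKG2A, read 8.55, 8.66, 8.65 and 8.74 in Lck-off samples and 8.12, 8.19 and 8.04 in WT samples. H2-T24 read 2.54, 2.38, 2.78 and 2.78 in Lck-off samples and 1.43, 1.67 and 1.28 in WT samples. H2-T10, whose product is a ligand of some gamma delta T cell receptors, averaged 3.92 ± 0.17 in Lck-off samples (SD, n = 4) and 2.94 ± 0.14 in WT samples (SD, n = 3). The groups did not overlap in any of the 3, and the differences were 0.54 for H2-T23 (adjusted p = 0.00596), 1.16 for H2-T24 (adjusted p = 0.00296) and 0.98 for H2-T10 (adjusted p = 0.00285). H2-M3, which presents N-formylated peptides, differed by 0.44 (adjusted p = 0.0216) and H2-Bl by 0.42 (adjusted p = 0.0259). Both of these calls held only when the array left out was Lck-off replicate 1 or 2, with adjusted p of 0.0572 to 0.0838 without any other array. The other 11 heavy chains kept their calls in all 7 such repeats.

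The probe named H2-T9 lists a transcript that RefSeq assigns to H2-T22, the member with no probe of its own. It read 3.70, 3.61, 3.75 and 3.86 in Lck-off samples and 2.58, 2.90 and 2.68 in WT samples, a difference of 1.01 (SE 0.10, adjusted p = 0.0016). Its sequence and that of the H2-T10 probe share 12 bases, in capitals here because T10, T9 and T22 are near copies.
H2-T10: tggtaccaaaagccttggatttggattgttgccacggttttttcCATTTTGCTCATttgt
H2-T9: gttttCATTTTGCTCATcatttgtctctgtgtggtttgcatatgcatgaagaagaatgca
Which of these genes gave the signal cannot be told apart from these probes.

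The light chain B2m, the partner of the heavy chains in class I molecules, was not called. Its probe (mm9 chr2:121978401-121978460) read 8.30, 8.62, 8.70 and 8.70 in Lck-off samples and 8.19, 8.12 and 8.13 in WT samples. Every Lck-off array was above every WT array, by 0.11 at the closest, and Lck-off replicate 1 was nearest to WT. The difference was 0.43 (SE 0.11, adjusted p = 0.0597), and without Lck-off replicate 1 it was 0.53 (adjusted p = 0.00939), on the other side of the threshold.

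Among the peptide transport genes, Tap2, a subunit of the TAP transporter, rose by 0.31 (SE 0.07, adjusted p = 0.0407). Its partner Tap1 read 3.52, 3.29, 3.46 and 3.57 in Lck-off samples and 2.84, 3.20 and 2.98 in WT samples. The groups did not overlap, but with WT replicate 2 close to Lck-off replicate 2 the difference of 0.45 (SE 0.11) was not called (adjusted p = 0.0511). It was called at an adjusted p of 0.0454 without Lck-off replicate 2 and of 0.0453 without WT replicate 2. Tapbp, encoding tapasin, which bridges TAP and the heavy chain, differed by 0.27 (SE 0.07, adjusted p = 0.0639). Tapbpl, which encodes the peptide editor TAPBPR and lies on chromosome 6, read 4.69, 4.67, 4.54 and 4.61 in Lck-off samples and 4.17, 4.27 and 4.26 in WT samples, and rose by 0.39 (adjusted p = 0.0153). Its call ended without WT replicate 1 (adjusted p = 0.0601) or WT replicate 2 (adjusted p = 0.0525), and that of Tap2 ended whichever array was left out (adjusted p 0.0624 to 0.122).

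The general chaperones of the endoplasmic reticulum, which fold many proteins besides class I, were not called higher. Calr, encoding calreticulin, differed by -0.01 (95% confidence interval -0.21 to 0.19, adjusted p = 0.963). Pdia3, encoding ERp57, differed by 0.06 (-0.16 to 0.28, adjusted p = 0.791). Canx, encoding calnexin, read 4.64, 4.43, 4.54 and 4.56 in Lck-off samples and 4.91, 4.79 and 4.89 in WT samples, and was the 1 member that fell, by 0.32 (SE 0.08, adjusted p = 0.0467). All Lck-off arrays lay below all WT arrays for Canx, but the call held only without Lck-off replicate 1 (adjusted p = 0.0485), and without any other array the adjusted p was 0.086 to 0.134.

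The immunoproteasome replaces the catalytic subunits of the constitutive proteasome in cells exposed to interferon and in lymphoid cells. Psmb9, its beta1i subunit (mm9 chr17:34319174-34319233), read 6.27, 6.27, 6.37 and 6.43 in Lck-off samples and 5.71, 5.89 and 5.67 in WT samples. All Lck-off arrays lay above all WT arrays, and the level was 1.50-fold higher (95% confidence interval 1.30 to 1.72, adjusted p = 0.00648). Psmb8, the beta5i subunit, rose by 0.33 (SE 0.08, adjusted p = 0.0426). Psmb10, the beta2i subunit encoded on chromosome 8, read 7.79, 8.20, 8.08 and 8.07 in Lck-off samples and 7.70, 7.82 and 7.66 in WT samples. Here Lck-off replicate 1 lay below WT replicate 2, and the difference of 0.30 (SE 0.11) was not called (adjusted p = 0.159; 0.0433 without Lck-off replicate 1). Of the PA28 activator subunits, both on chromosome 14, Psme1 rose by 0.30 (adjusted p = 0.0474) and Psme2 differed by 0.23 (adjusted p = 0.11) at its brightest probe. The calls of Psmb8 and Psme1 ended whichever array was left out (adjusted p 0.0538 to 0.129 for Psmb8 and 0.0734 to 0.148 for Psme1), whereas that of Psmb9 held in all 7 repeats.

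Nlrc5, the transactivator of class I genes, rose as well. Its brightest probe (mm9 chr8:97051105-97051164) read 5.32, 5.46, 5.66 and 5.60 in Lck-off samples and 4.91, 4.86 and 4.80 in WT samples. The lowest Lck-off array exceeded the highest WT array by 0.41, and the level was 1.57-fold higher (95% confidence interval 1.34 to 1.84, adjusted p = 0.00687), a call that held in all 7 repeats with an array left out. Its second probe gave 0.74 (SE 0.11, adjusted p = 0.00742 over all kept probes). Erap1, the aminopeptidase that trims peptides in the endoplasmic reticulum, differed by -0.09 (95% confidence interval -0.31 to 0.13, adjusted p = 0.664).

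The class I-like genes, whose products present ligands other than peptides, were not called. Cd1d1, which presents lipids to NKT cells, differed by 0.10 (95% confidence interval -0.05 to 0.25, adjusted p = 0.456), although all Lck-off arrays lay above all WT arrays. Mr1, which presents microbial metabolites to MAIT cells, differed by 0.01 (-0.31 to 0.32, adjusted p = 0.987). Neither interval reaches the 0.42 that was the smallest difference of a heavy chain.

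Several members had more than 1 probe above background, and these mostly gave like sizes. Beside the brightest probe, the other probe of that name gave 0.53 for H2-Q2, 1.26 for H2-T24, 0.73 for Psmb9 and 0.20 for Cd1d1. The array places that other H2-Q2 probe at mm9 chr17:35460007-35460066, near the H2-Q1 probe (chr17:35461859-35461918). The brightest H2-Q2 probe lies further off, at chr17:35482113-35482172. Which gene the other probe reads was not tested, so its 0.53 may not be a second reading of H2-Q2. Psme2 had 3 such probes, at 0.23, 0.24 and 0.74, and only the faintest passed the test over all kept probes (adjusted p = 0.0214). That faintest probe is placed at mm9 chr14:56209736-56429032, a span far wider than its 60 bases. What it reads was not tested, so its 0.74 may not be a reading of Psme2. H2-Q10 and Psme2 were thus the members whose probes disagreed most.

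**Figure D2:**
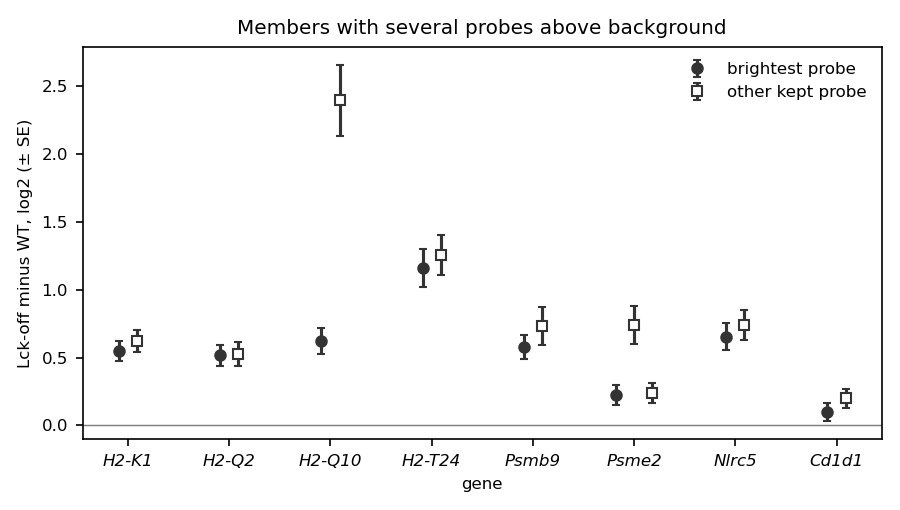
Lck-off minus WT difference, on the log2 scale with its standard error, for each kept probe of the 8 members with several; filled circles are the brightest probe and open squares the others. Probes of a gene name lie close together except those of H2-Q10 (0.62 and 2.40) and the faintest probe of Psme2 (0.74). The open square of H2-Q2 is a probe that maps near H2-Q1.

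By position, 14 of 16 measured members on chromosome 17 rose and none fell, with a median difference of 0.54 and a range of 0.27 to 1.17. Of 12 members elsewhere, 3 rose and 1 fell, with a median of 0.16 and a range of -0.32 to 0.65. Both heavy chains with no mapped position, H2-Q5 and H2-Bl, rose. The median of the chromosome 17 members relative to the WT mean was 0.46, 0.53, 0.57 and 0.61 in Lck-off samples and -0.04, 0.07 and -0.03 in WT samples. The median of the members elsewhere was 0.10, 0.19, 0.22 and 0.20 in Lck-off samples and 0.04, -0.01 and -0.01 in WT samples. Lck-off replicate 1 was the lowest of its group in both. The groups did not overlap for either set, and no test of the difference between the sets was made, since their genes were chosen with results of these data known.

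All 13 measured heavy chains are on chromosome 17 or unmapped, so position and kind of gene go together. Among the transport, tapasin, immunoproteasome and PA28 genes, a grouping made with results known, the 5 on chromosome 17 (Tap1, Tap2, Tapbp, Psmb8 and Psmb9) had a median difference of 0.33, with 3 called higher. The 4 elsewhere (Tapbpl, Psmb10, Psme1 and Psme2) had a median of 0.30, with 2 called higher. With the loading chaperones Calr, Canx and Pdia3 counted too, the 7 elsewhere had a median of 0.23, with 2 called higher and 1 lower. The low values off chromosome 17 were those of the chaperones, Erap1, Cd1d1 and Mr1.

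**Figure D3:**
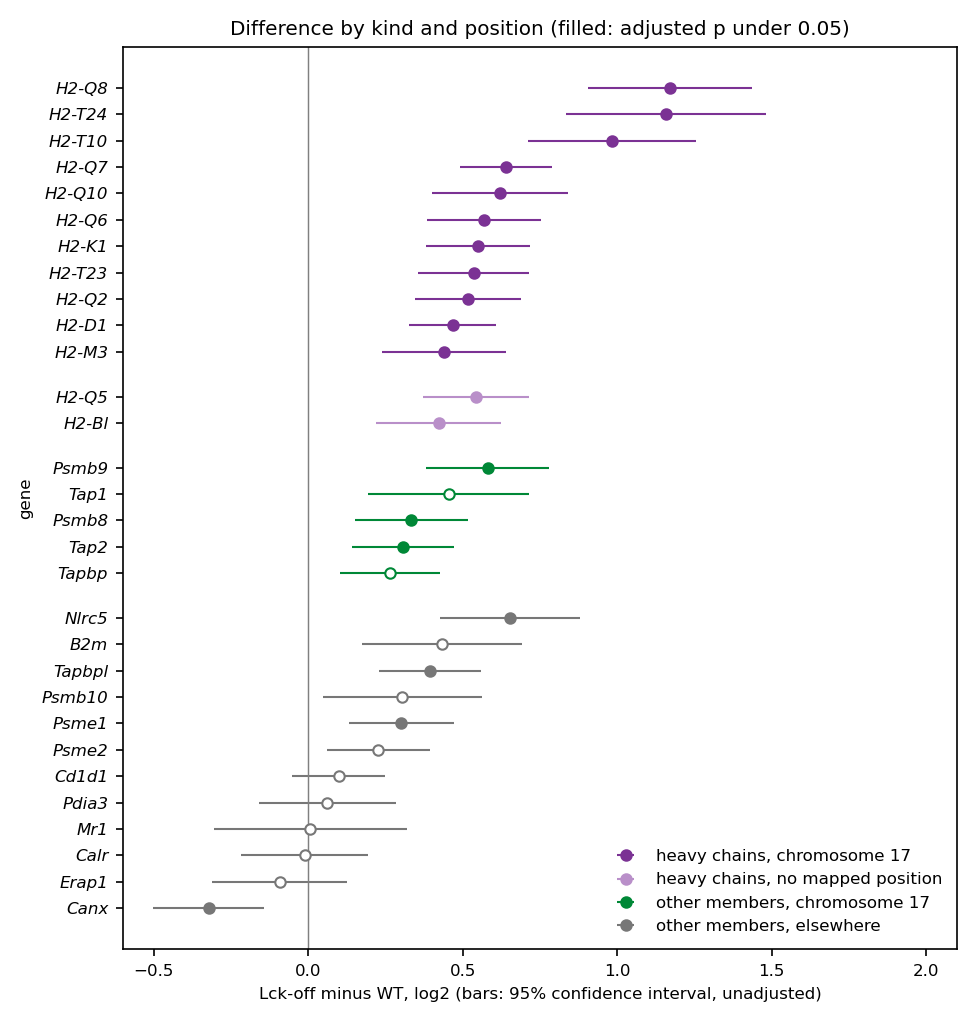
Lck-off minus WT difference of each measured member on the log2 scale, with its unadjusted 95% confidence interval, grouped by kind of gene and position; filled points have an adjusted p under 0.05. The heavy chains lie at 0.42 or above, the other chromosome 17 members at 0.27 to 0.58, and the members elsewhere run from -0.32 for Canx to 0.65 for Nlrc5.

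Other genes of the same stretch gave a comparison by position, though the choice of members set its ends and which genes were left in it. Between the probes of Tapbp and H2-M3, 3.35 Mb apart (mm9 chr17:34065963-37411409), lay 143 other tested genes, of which 15 rose, 3 fell and 125 were not called, with a median difference of 0.08. Of 14 with names starting with H2-, class II genes among them, 3 rose and 2 fell, and of the other 129, 12 rose and 1 fell with a median of 0.07. This split went by name only, and several of the 12 lay among the Q and T genes. A called probe at chr17:35565253-35565312 (0.58) overlaps that of H2-Q6, and Gm11127 (0.60) lies between the probes of H2-T23 and H2-T10. The 129 are therefore not free of class I sequence. The smallest p belonged to H2-Ob, a chain of the class II accessory molecule H2-O, which fell by 0.86 (SE 0.07, adjusted p = 0.000919). The next were H2-T9, given above, a probe without a gene name (0.80, SE 0.08) and H2-K2 (0.65, SE 0.07), all of them higher. Aif1 (0.94), Lta (0.45) and Ltb (0.35), also called higher, were picked after their values were seen. So was C2, called higher as well but well above background on only 1 of 3 WT arrays, so its size is not given.

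**Figure D4:**
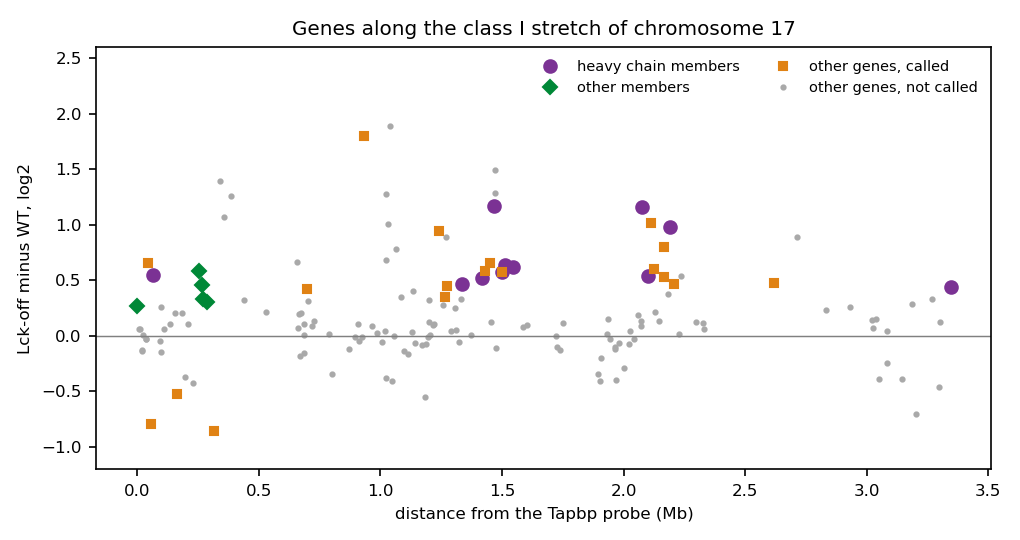
Lck-off minus WT difference on the log2 scale against distance in Mb from the Tapbp probe for tested genes of the class I stretch of chromosome 17; circles are heavy chain members, diamonds other members, squares other called genes and dots other genes not called. The 16 members all lie above 0, among 125 dots on both sides of 0.

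The slide held its 7 arrays in 2 rows: Lck-off replicates 2 and 3 lay in row 1 beside WT replicate 3, and the others in row 2. Within row 1 the median difference was 0.60 for members on chromosome 17 and 0.22 for those elsewhere, and within row 2 it was 0.52 and 0.12. All 13 measured heavy chains had positive differences within both rows, from 0.40 to 1.38 in row 1 and from 0.34 to 1.11 in row 2. With the row as a block, 16 members were called higher and none lower, against 3.23% of all genes higher and 715 of 18231 lower. The calls of Tap2, Psmb8, Psme1 and Canx ended.

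Promoters were read for all members that RefSeq holds, whether or not they changed. Its GRCm38.p6 table, 250 bases before to 50 after each start, matched 23 of 33, and motifs were sought by letters on both strands. The kappaB letters, GGGGATTCCCC, were taken from the H2-K1 promoter, so the match of H2-K1 was fixed in advance. They were also in the promoters of its close copies H2-D1 and H2-Q6. Of all 32851 promoters 10 (0.0304%) held them, those of these 3 members included, so the counts are a description and no measure of enrichment. The core of an interferon-stimulated response element, GAAANNGAAA, was in those of B2m, H2-T22, H2-T23, Psme1 and Erap1, against 3.44% of all. Only exact letters were counted. Near matches, such as tttcacttct in the H2-K1 and H2-D1 promoters printed below, were not, so a promoter without the letters may still hold such an element. CCAAT was in 15 of the 23, against 37.4% of all, and TGACGC in 5, against 7.4%. The promoters of 4 members are printed, with kappaB or response element letters in capitals, 2 with each motif.
H2-K1, GRCm38.p6 chr17:34000284-34000583, minus strand: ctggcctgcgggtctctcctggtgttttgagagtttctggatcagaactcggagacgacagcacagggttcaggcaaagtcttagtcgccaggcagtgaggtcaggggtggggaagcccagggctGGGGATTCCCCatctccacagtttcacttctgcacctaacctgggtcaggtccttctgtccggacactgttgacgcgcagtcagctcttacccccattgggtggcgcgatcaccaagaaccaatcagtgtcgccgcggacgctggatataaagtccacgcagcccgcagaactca
H2-D1, GRCm38.p6 chr17:35262844-35263143, plus strand: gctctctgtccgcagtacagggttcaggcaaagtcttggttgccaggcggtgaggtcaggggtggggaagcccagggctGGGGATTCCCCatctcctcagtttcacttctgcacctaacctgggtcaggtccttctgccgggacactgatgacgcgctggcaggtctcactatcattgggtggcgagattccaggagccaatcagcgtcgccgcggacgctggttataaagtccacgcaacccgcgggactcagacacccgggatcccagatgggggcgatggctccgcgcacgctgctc
B2m, GRCm38.p6 chr2:122147437-122147736, plus strand: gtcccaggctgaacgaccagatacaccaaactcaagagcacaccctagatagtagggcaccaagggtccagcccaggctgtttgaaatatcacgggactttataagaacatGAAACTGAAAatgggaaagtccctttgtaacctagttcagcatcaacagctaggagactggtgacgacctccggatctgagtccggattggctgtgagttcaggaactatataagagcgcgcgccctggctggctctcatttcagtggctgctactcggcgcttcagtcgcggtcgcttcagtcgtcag
H2-T23, GRCm38.p6 chr17:36032652-36032951, minus strand: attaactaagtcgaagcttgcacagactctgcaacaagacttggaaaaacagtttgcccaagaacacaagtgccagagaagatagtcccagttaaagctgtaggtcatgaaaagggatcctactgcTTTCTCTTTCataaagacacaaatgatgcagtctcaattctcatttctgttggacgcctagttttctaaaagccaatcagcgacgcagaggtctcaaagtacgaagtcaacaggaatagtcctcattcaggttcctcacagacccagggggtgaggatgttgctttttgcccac
The kappaB letters start at base -125 for H2-K1 and -171 for H2-D1 from the gene's start, and the response element letters at -139 for B2m and, on the other strand, at -124 for H2-T23. Of the 5 members with the response element letters, H2-T23 and Psme1 were called higher, B2m and Erap1 were not, and H2-T22 had no probe of its own. Tap1 and Psmb9 run head to head, with starts 226 bases apart, so their promoter windows share 275 bases, and their differences were 0.45 and 0.58.

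Other genes of the same steps were read from lists by function. Of 33 further proteasome genes measured, the core subunits and their regulators, none was called, with a median difference of -0.03 and a range of -0.21 to 0.19. At an unadjusted p under 0.05 none of them was higher and 1 was lower, and the deposited table and limma's trended, robust fit called none. Of 19 other folding genes of the endoplasmic reticulum none was called (median -0.08; none higher and 2 lower at an unadjusted p under 0.05; 1 called from the deposited table and 2 by the trended, robust fit). Of 10 other peptidases none was called (median -0.07; 1 higher and 2 lower at an unadjusted p under 0.05; none from the deposited table and 1 by the trended, robust fit). Of 7 genes of class I surface turnover and cross-presentation none was called by any of these, nor passed an unadjusted p of 0.05. The differences of the immunoproteasome and PA28 members, 0.23 to 0.58, lay above the 0.19 that was the highest of the other proteasome genes. The lowest of them, Psme2 (0.23, SE 0.07), lay above it by less than its SE, and Psme2 and Psmb10 were not called.

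**Figure D5:**
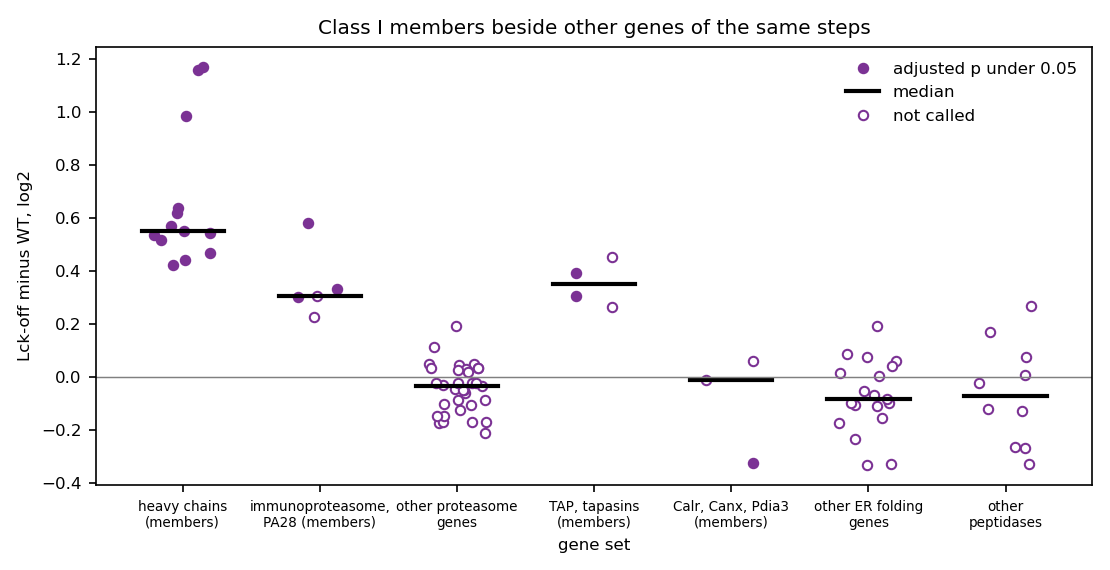
Lck-off minus WT difference on the log2 scale for members by step, beside other genes of the same steps; filled points have an adjusted p under 0.05, and bars mark medians. The median is 0.55 for the 13 heavy chains, 0.30 for the immunoproteasome and PA28 members and -0.03 for the 33 other proteasome genes.

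Of 8 other measured class I and class I-like genes, out of 27 listed, H2-T9, H2-M2 (0.56, adjusted p = 0.00632) and H2-M11 (0.47, adjusted p = 0.0238) rose. Fcgrt, encoding the neonatal Fc receptor, which also pairs with B2m, fell by 0.75 (adjusted p = 0.00197). H2-Q4, a heavy chain that is no member and was picked after its value was seen, overlapped between groups with a difference of 0.12 (adjusted p = 0.626). Of 5 measured genes for receptors that read class I, Cd160 fell by 0.70 (adjusted p = 0.00287), and the coreceptor chains Cd8a (0.28, adjusted p = 0.146) and Cd8b1 (0.25, adjusted p = 0.065) were not called.

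Genes induced by type I interferon moved on the same arrays. Of 39 measured, none of them a member, 36 rose, with a median difference of 1.63 and Mx1 at 4.52 (SE 0.25). Their median relative to the WT mean was 1.55 to 1.79 in Lck-off samples and -0.30 to 0.31 in WT samples. The median difference of the 30 measured members, 0.44, lay below that of this list, and whether the 2 are linked was not tested.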

How the data were processed

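Total RNA of 4 Lck-off and 3 WT samples was measured on 7 one-colour (Cy3) Agilent arrays. Intensity values come from Feature Extraction 10.7.3.1 (design 028005, mm9 positions), which the authors ran, per the file headers; they are background subtracted and not normalized between arrays, and the software also set the flags for spots above background or non-uniform. Values of the deposited table look like log2 (column medians 6.34 to 6.35), and the submitters' processing notes name limma; its steps, centring included, were not given in the sources used here.

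Log2 processed intensity was set relative to each array's 75th percentile (208 to 243), non-uniform spots were dropped, 25578 of 55681 probes, well above background on 3 or more of 7 arrays, stayed in, and the brightest of them stood for a gene name. Groups were compared with limma 3.58.1 (R 4.3.3), and the fit was tested on simulated data. The number of arrays limits precision (median SE 0.11). Members, gene lists and the rule for named genes (all members, Lck, and up to 4 called genes of smallest p in each list and in the stretch) were chosen with earlier results of these data known. One list result that the rule names is not reported here. Alternatives changed the background correction, scaling, filter, probe choice, moderation, blocks and arrays used. RefSeq names and promoters came from GRCm38.p6.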

Additional observations from a re-analysis of the deposited data

Results flagged for a closer look

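Of the 30 measured members, 5 had 1 Lck-off array far from the other 3, by the gap to the nearest array as a share of the group's range; chance gives such a flag in about 1 of 20 groups. Lck-off replicate 1 was the low array for H2-K1 (0.871 of the range), H2-Q8 (0.835) and Tapbp (0.918), and in each it still lay above all WT arrays. Lck-off replicate 2 was the high array for Psme1 (0.869) and Lck-off replicate 3 for Cd1d1 (0.876). Without Lck-off replicate 1, H2-K1 and H2-Q8 stayed called higher and Tapbp remained uncalled (0.29, adjusted p = 0.0734). Without Lck-off replicate 2 the Psme1 difference was 0.27 (adjusted p = 0.0892).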

How the results depend on the processing

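Direction did not reverse for any called member under any alternative run. The 19 members called higher became 13 to 18 with 1 array left out, where 2.46% to 3.54% of all genes were called higher. They became 24 with trended, robust moderation, 22 with normexp, 22 from the deposited table and 21 with the filter on all 7 arrays. The shares of all genes called higher were 4.93%, 4.36%, 4.54% and 4.49% in that order. With no filter on dim probes 13 of 32 members were called higher, against 1.03% of all genes. B2m and Tap1, not among the 19, were each called in 6 of 20 alternatives outside the single rows. Median scaling left 7 members called higher, against 2.41% of all genes, with a median SE of 0.16 in place of 0.11. The fit within slide row 2 (2 arrays of each group) called 0 members higher and 0 genes over the whole array. Row 1 had 1 WT array beside 2 Lck-off arrays, and the median member difference there was 0.60 on chromosome 17 and 0.22 elsewhere. The 1 member called lower became 0 under median scaling, with no filter on dim probes, with the replicate block, with the row as a block and within either row, and 0 to 1 with an array left out. The 18 called neighbours on chromosome 17 became 9 under median scaling, 9 with no filter, 5 with the replicate block, 1 within row 1 and 0 within row 2. The Lck difference lost its call under median scaling (-0.39), with no filter (-0.37), with the replicate block (-0.35), with the row as a block (-0.39), within row 1 (-0.27) and within row 2 (-0.47), and was -0.44 to -0.34 with an array left out. The median of members elsewhere was 0.23 with the mean of all kept probes and 0.22 within row 1. The median on chromosome 17 was 0.47 once heavy chain probes with shared runs were left out, an alternative chosen after seeing the data. Genes called over the whole array numbered 964 without Lck-off replicate 3, 968 without Lck-off replicate 4, 960 without WT replicate 2 and 984 without WT replicate 3, against 1527 with all arrays, 918 under median scaling, 717 with no filter, 105 within row 1 and 0 within row 2. The causes were not tested. Replicate numbers did not pair the samples: same-numbered deviations correlated at 0.11, 0.05 and -0.01, and Lck-off replicate 2 correlated best with WT replicate 3 (0.14). The replicate block left 374 genes called over the whole array, 193 higher (1.06%) and 181 lower. It left 1 member, H2-Q8, called higher. Of 655 member results under alternatives, 510 kept their side of the threshold, 126 lost a call and 19 gained one.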
